A study of Rattus norvegicus with 6 samples.

Results

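Type I interferon response genes are transcribed when cells sense interferon, and they were followed here in rat dorsal root ganglia during bone cancer pain. They are a list of 47 interferon-stimulated genes, taken by symbol, of which 45 had a row in the deposited table of 23800 features. A gene was tested where 3 or more of the 6 libraries had 1 FPKM or more, which 42 of the 45 met and Oas2, Oas3 and Herc6 did not. Oas1b and Samd9l are not analysed here. FPKM are fragment numbers divided by library size and transcript length, so levels of different genes are compared per length.

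The ganglia hold the cell bodies of sensory neurons, wrapped by satellite glia and mixed with Schwann cells, vessels and resident macrophages. In the bone cancer pain group (BCP, replicates 1, 2 and 3), the left tibia of Sprague Dawley rats received 10 µL of medium with unboiled MRMT-1 cells, which are a line from a rat breast carcinoma. In the sham group (sBCP, replicates 1, 3 and 4) the injected MRMT-1 cells had been boiled, so both groups shared the drilled bone and the cell material, and neither is an uninjected control. Ganglia L3 to L5 of the injected side were taken on day 17. Age and sex are not given in the labels, nor whether a sample is 1 animal or a pool, so p-values reflect only how these samples spread, part of which may be technical. Because the samples are bulk tissue, more cells of a type and more RNA per cell cannot be told apart.

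Type I interferons bind a receptor of the subunits Ifnar1 and Ifnar2, whose kinases Jak1 and Tyk2 phosphorylate transcription factors of the STAT family. STAT2 and IRF9 are parts of the complex ISGF3, which binds the interferon-stimulated response element (ISRE) in target promoters. The targets include RNA sensors, antiviral enzymes and GTPases, the ubiquitin-like protein ISG15 and its enzymes, and factors such as IRF7 and USP18 that amplify or damp the signal.

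RefSeq promoter windows (GRCr8, 250 bases before to 50 after the start site used for the gene) were found for 34 of the 47 genes. This site was the annotated gene start for 57.8% of 33469 genes. Of the 34 windows, 22 (64.7%) held, on either strand, the core letters of the ISRE, which are GAAA, any 2 bases and GAAA. The same letters were in 3.92% of all 33469 windows of that length. The gamma-activated site TTCNNNGAA, which reads the same on both strands, was in 8 of the 34 (23.5%) and in 8.87% of all windows. These matches describe letters in a window and are not shown to be bound. In the stretches below, capitals mark the ISRE core (TTTC, any 2 bases and TTTC where it lies on the opposite strand), and bases run in the direction of the gene. The windows of Oas1a, Irf7 and Rsad2 are shown because, among genes with a window that holds the core, these had the largest ratios of BCP replicate 2 to the median of the other 5 libraries, a choice made after their values were seen, and those of Ifi27, Lgals3bp, Ifitm3 and Ifitm2 because these were the most abundant. The Mx1 window holds no match. No window was found for 13 genes, among them Ifit1, Isg15 and Usp18, whose ratios were 9.09, 7.34 and 5.32.
Oas1a, chr12:41330385-41330465, plus strand: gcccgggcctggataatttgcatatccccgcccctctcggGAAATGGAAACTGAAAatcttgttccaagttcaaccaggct
Irf7, chr1:205800043-205800132, minus strand: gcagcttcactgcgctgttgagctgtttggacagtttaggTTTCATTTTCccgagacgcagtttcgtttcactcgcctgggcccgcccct
Rsad2, chr6:48788218-48788307, minus strand: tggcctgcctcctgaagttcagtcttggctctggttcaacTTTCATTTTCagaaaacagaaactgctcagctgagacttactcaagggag
Ifi27, chr6:128355103-128355277, plus strand: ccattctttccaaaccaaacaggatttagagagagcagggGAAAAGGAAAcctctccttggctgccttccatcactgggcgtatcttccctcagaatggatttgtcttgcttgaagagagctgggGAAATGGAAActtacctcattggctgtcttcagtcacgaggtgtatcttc
Lgals3bp, chr10:104127849-104127938, minus strand: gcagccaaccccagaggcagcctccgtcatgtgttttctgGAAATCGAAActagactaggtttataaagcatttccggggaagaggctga
Ifitm3, chr1:205541759-205541842, minus strand: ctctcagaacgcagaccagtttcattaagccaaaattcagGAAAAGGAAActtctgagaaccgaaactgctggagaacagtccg
Ifitm2, chr1:205482349-205482421, minus strand: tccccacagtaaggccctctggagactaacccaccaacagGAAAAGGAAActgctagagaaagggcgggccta
In Oas1a 2 matches overlap, and Ifi27 has 2 separate ones.

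The comparison of BCP with sBCP asked how these genes differ in the ganglia of the injected side after living tumour cells. Levels were uneven among the BCP samples. BCP replicate 2 was the highest of the 6 libraries in 40 of the 42 tested genes, where it was the highest in 21% of all 13710 tested features, and it exceeded every sBCP library in 41 of the 42, where 25.5% of all tested features did so. BCP replicate 1 stood above every sBCP library for 15 of the 42 (15.1% of all tested features), among them Ifit1, Isg15, Irf7, Oas1a, Usp18 and Rsad2. BCP replicate 3 lay within or below the sBCP range in all but 2 of the tested genes. It was above that range in 19.7% of all tested features. Over the group, 39 of the 42 had a BCP minus sBCP difference above 0 and 3 (Ifitm2, Adar and Helz2) below, or 1 below with median-ratio or quantile scaling, with 45.5% of all tested features above 0. None passed the test: limma with Benjamini-Hochberg adjustment over all tested features called 0 of the 42 higher and 0 lower, against 2 features called higher (0.0146%) and 23 lower (0.168%) in the whole table.

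**Figure D1:**
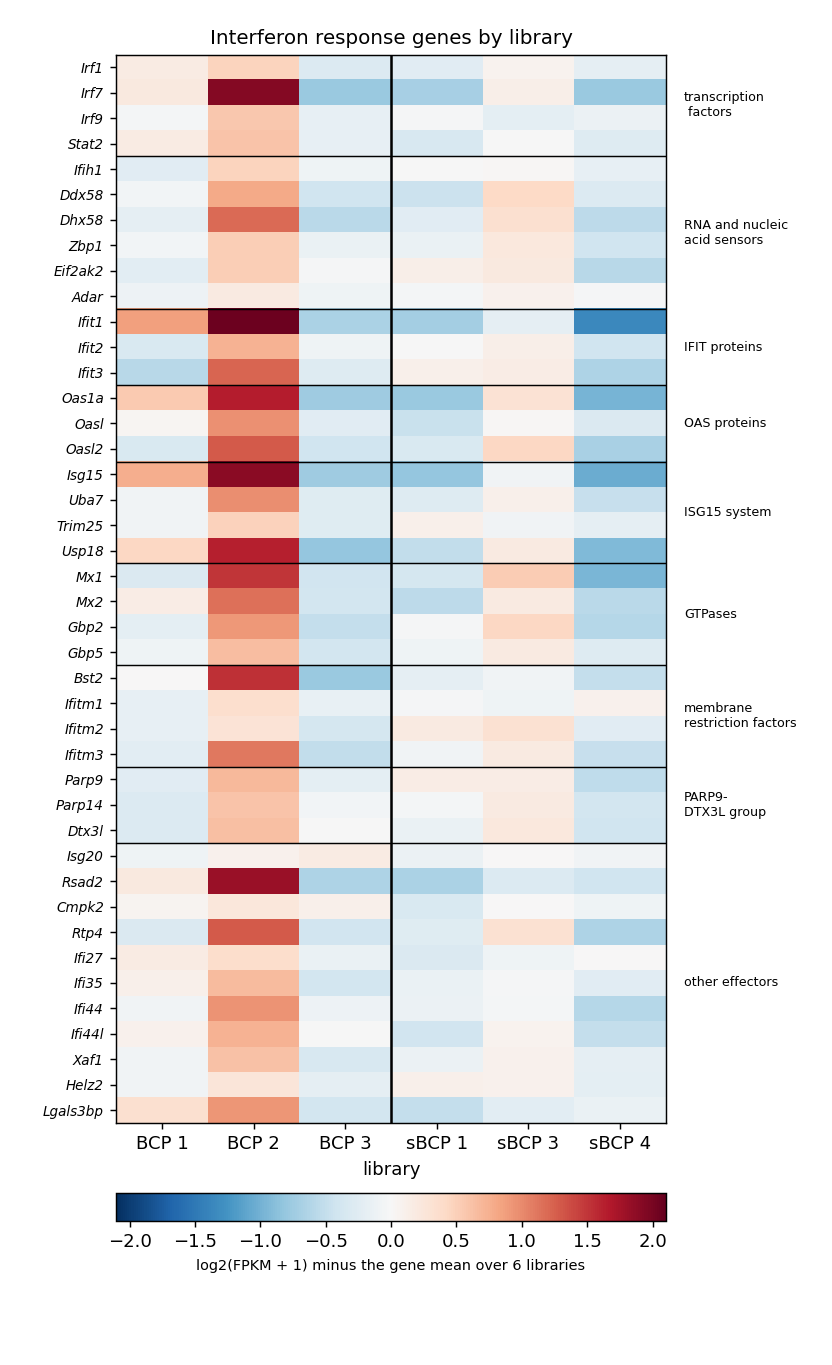
Each row is a tested interferon response gene and each column a library, and colour is the gene's log2(FPKM + 1) minus its mean over the 6 libraries. BCP replicate 2 is the highest library in 40 of the 42 rows (21% of all tested features). BCP replicate 1 exceeds every sBCP library in 15 (15.1% of all tested features).

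On the log2(FPKM + 1) scale the 42 differences had a median of 0.26 and ran from -0.18 to 1.51, and the median over all tested features was -0.01. Their median standard error was 0.294, against 0.125 over all tested features. The smallest unadjusted p was 0.0540, and 0 of the 42 were under 0.05 where 1.98% of all tested features were. Without BCP replicate 2 the median difference was -0.04, with 20 of the 42 above 0 and 22 below (43.6% of all tested features above 0). Leaving out BCP replicate 1 gave 0.42, BCP replicate 3 gave 0.46, sBCP replicate 3 gave 0.39 and sBCP replicate 4 gave 0.14. With a weight estimated for each library the median was 0.05, with 22 of the 42 above 0 and 20 below. The median over all tested features was -0.028 in that fit. Limma called none of the 42 in any of these fits, and without BCP replicate 2 it called 0.0219% of all tested features higher and 0.146% lower. Without BCP replicate 3, 15 of the 42 had an unadjusted p under 0.05, all of them higher in BCP, where 3.01% of all tested features passed that level and 1.04% passed it as higher, and the smallest adjusted p was 0.724. Over all tested features, none was called higher without BCP replicate 1 (where 254 features, higher or lower, had an unadjusted p under 0.05), 1 when BCP replicate 3 or sBCP replicate 3 was left out, and 7 when sBCP replicate 4 was. Leaving out BCP replicate 3 gave 13 called lower, and leaving out sBCP replicate 3 gave 14.

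**Figure D2:**
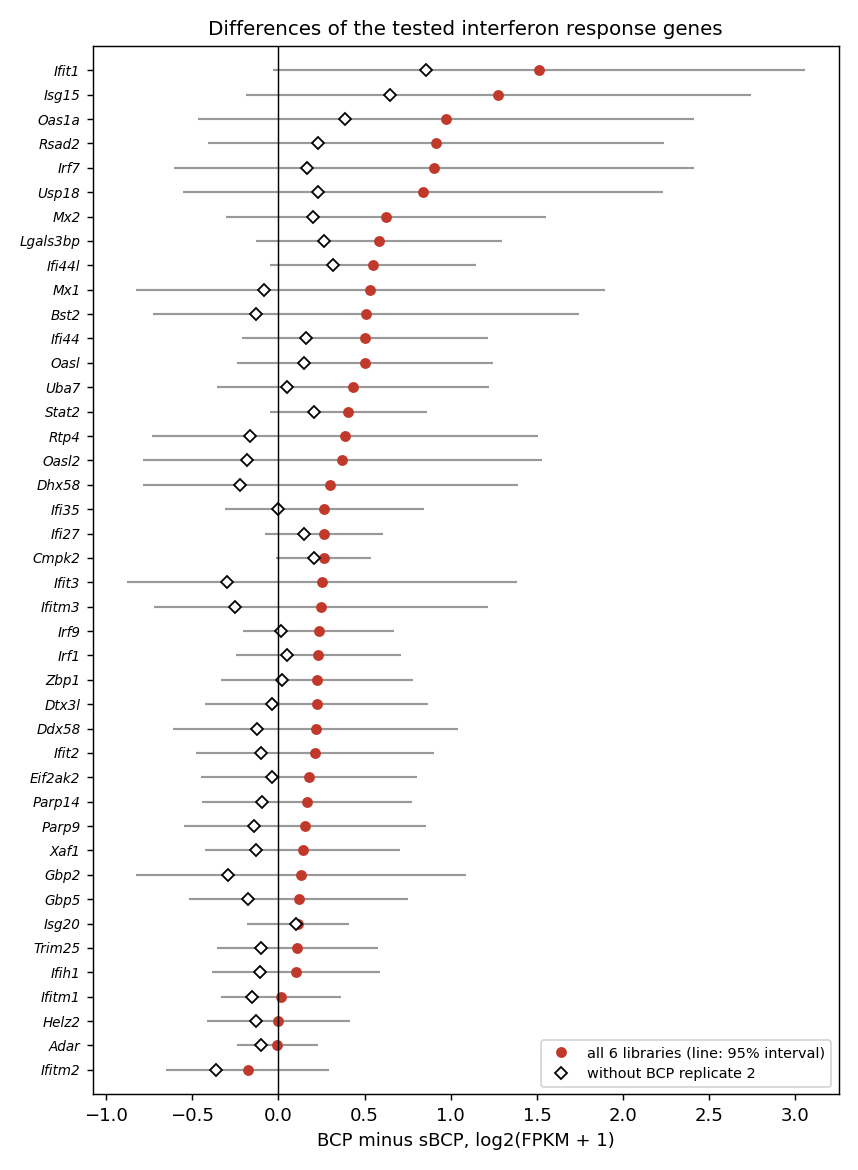
Points give, for each of the 42 tested genes, the BCP minus sBCP difference in log2(FPKM + 1), with limma's 95% interval as a line. Open diamonds leave out BCP replicate 2, and 22 of them lie below 0.

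Among the transcription factors, Irf7 had the largest difference. Irf7, the factor that drives interferon-alpha genes and is itself interferon-induced, was at 16.3, 55.8 and 7.65 FPKM in BCP, against 8.21, 15.2 and 7.70 FPKM in sBCP. BCP replicate 2 stood far above the rest and BCP replicate 3 just below every sBCP library, so the groups overlapped. The Irf7 difference was 0.90 with a 95% interval from -0.60 to 2.41, and 0.16 without BCP replicate 2. Irf7 overlaps Phrf1 on the opposite strand in the deposited coordinates, and Uba7 overlaps Inka1, so without a stated strand setting their reads cannot be told apart. Stat2, a STAT-family part of ISGF3, was at 25.2, 34.3 and 19.7 FPKM in BCP, against 17.4, 22.1 and 18.3 FPKM in sBCP. BCP replicates 1 and 2 were above all sBCP libraries and BCP replicate 3 lay among them (difference of 0.41, standard error 0.193, unadjusted p = 0.0730 by limma). Irf9, the DNA-binding part of ISGF3, was at 16.8, 25.9 and 15.2 FPKM in BCP, against 17.1, 14.9 and 15.7 FPKM in sBCP, where only BCP replicate 2 left the sBCP range upwards. Irf1, a factor shared with interferon gamma, averaged 6.78 ± 2.02 FPKM in BCP and 5.50 ± 0.777 FPKM in sBCP (SD, n = 3 each). All 4 factors had a difference above 0, and all 4 were above 0 without BCP replicate 2 as well, at 0.05 for Irf1 and 0.012 for Irf9.

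Sensors of foreign or misplaced RNA were highest in BCP replicate 2 and otherwise mixed. Dhx58, the helicase LGP2 that tunes RIG-I-like receptors, was at 1.83, 6.38 and 1.18 FPKM in BCP, against 1.72, 3.07 and 1.20 FPKM in sBCP. Ddx58, which encodes the helicase RIG-I, was at 3.17, 6.53 and 2.26 FPKM in BCP, against 2.17, 4.79 and 2.56 FPKM in sBCP. For both genes sBCP replicate 3 was the second highest library, above BCP replicate 1. Ifih1, which encodes MDA5, a sensor of long double-stranded RNA, was lower in BCP replicate 1 (0.910 FPKM) than in any sBCP library (1.00 to 1.28 FPKM), with 2.11 FPKM in BCP replicate 2 and 1.12 FPKM in BCP replicate 3. Zbp1, a sensor of left-handed nucleic acid, averaged 2.00 ± 0.782 FPKM in BCP and 1.56 ± 0.560 FPKM in sBCP, and Eif2ak2, the translation-blocking kinase PKR, 7.04 ± 2.25 FPKM and 6.13 ± 1.93 FPKM (SD, n = 3 each). Adar, the RNA-editing adenosine deaminase, was at 17.7, 21.8 and 17.9 FPKM in BCP, against 18.5, 20.3 and 18.7 FPKM in sBCP. Its difference was -0.0063, or 0.0080 with median-ratio scaling, with a 95% interval from -0.24 to 0.23, the narrowest interval among the sensors. Without BCP replicate 2, 1 of these 6 genes was above 0 and 5 were below.

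Ifit1 had the largest difference of the 42 genes. It encodes a protein that binds viral RNA lacking a methylated cap, and it was at 8.52, 20.8 and 2.29 FPKM in BCP, against 2.17, 3.59 and 1.03 FPKM in sBCP. BCP replicates 1 and 2 lay above every sBCP library and BCP replicate 3 within the sBCP range, 1.01 times the sBCP mean. The difference was 1.51 with a standard error of 0.654 (unadjusted p = 0.0540, adjusted p = 1.00 by limma), and 0.86 without BCP replicate 2. Its neighbours were different in BCP replicate 1. In the deposited coordinates, whose build is not given in the sources used here, Ifit2, Ifit3 and Ifit1 lie in this order on chromosome 1 between 252894663 and 252946170. Ifit3, a partner of Ifit1 in RNA binding, was at 0.538, 4.38 and 0.905 FPKM in BCP, against 1.49, 1.56 and 0.466 FPKM in sBCP, so that BCP replicate 1 was below 2 of the 3 sBCP libraries. Ifit2, a further member of the family, was at 1.20, 3.52 and 1.55 FPKM in BCP, against 1.69, 1.95 and 1.04 FPKM in sBCP. Relative to the sBCP mean, BCP replicate 1 was at 0.765 for Ifit2 and 0.460 for Ifit3.

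In the ISG15 system the modifier and its protease had BCP replicates 1 and 2 above every sBCP library, and the 2 tested enzymes of its attachment only BCP replicate 2. Isg15, the ubiquitin-like modifier, was at 15.7, 35.9 and 4.89 FPKM in BCP, against 4.65, 8.39 and 3.83 FPKM in sBCP, which put BCP replicates 1 and 2 above and BCP replicate 3 within the sBCP range. Its difference was 1.28 (standard error 0.622, unadjusted p = 0.0787 by limma), and 0.65 without BCP replicate 2. Usp18, the protease that removes ISG15 and restrains the receptor, was at 8.36, 20.5 and 2.97 FPKM in BCP, against 3.86, 6.90 and 2.65 FPKM in sBCP. As for Isg15, the highest libraries in order were BCP replicate 2, BCP replicate 1 and sBCP replicate 3, with a difference of 0.84 (95% interval from -0.55 to 2.23). Uba7, the enzyme that activates ISG15, averaged 4.08 ± 2.54 FPKM in BCP and 2.54 ± 0.754 FPKM in sBCP, and Trim25, a ligase for ISG15 and an activator of RIG-I, 5.66 ± 1.83 FPKM and 5.05 ± 0.634 FPKM (SD, n = 3 each). Herc6, which in mouse is the main ligase for ISG15, was below the filter, with 1.45 FPKM in BCP replicate 2 and at most 0.872 FPKM in the other libraries, the lowest of them BCP replicate 1 at 0.205 FPKM.

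**Figure D3:**
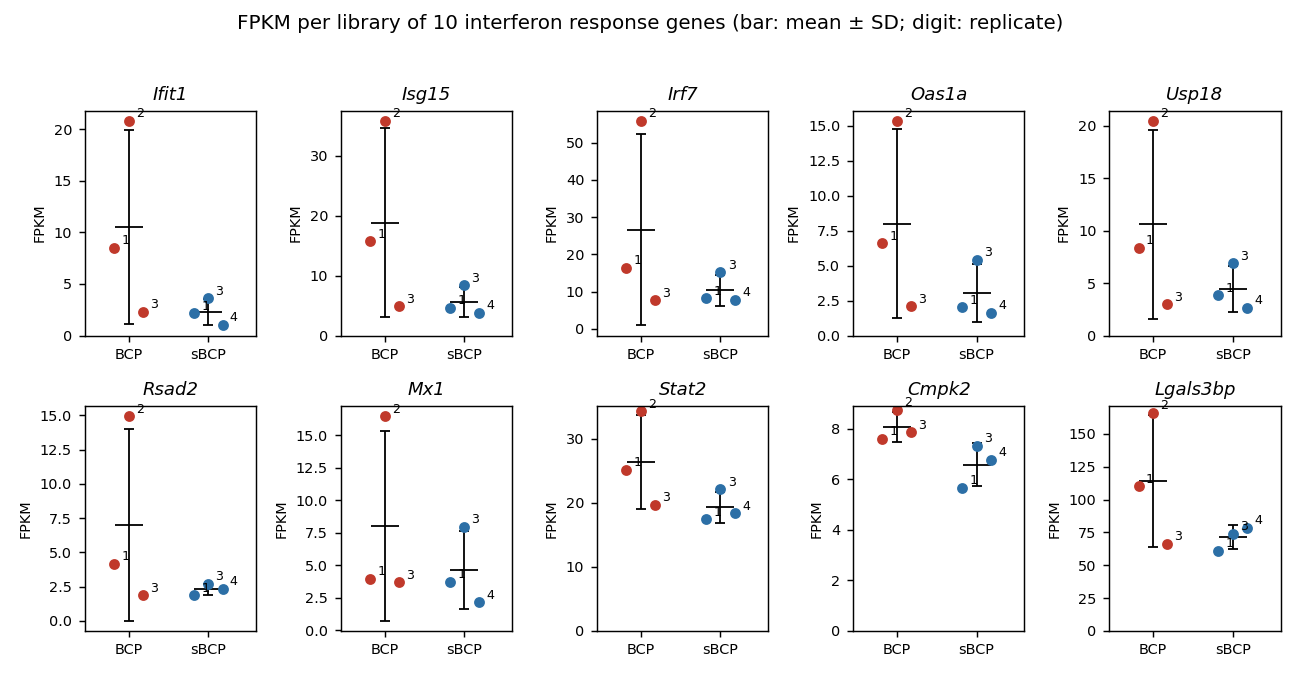
Points are FPKM per library for 10 genes chosen after their values were seen, with the replicate number beside each point and the mean ± SD (n = 3) in black. BCP replicate 2 is the highest point in each panel, and in 9 of the panels, all but Cmpk2, the groups overlap.

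Among the oligoadenylate synthetases, which make the messenger that activates RNase L, Oas1a had the largest difference. Oas1a was at 6.59, 15.4 and 2.09 FPKM in BCP, against 2.03, 5.42 and 1.63 FPKM in sBCP, with a difference of 0.97 and a 95% interval from -0.47 to 2.41. BCP replicates 1 and 2 were above the sBCP libraries, of which replicate 3 was the highest. Oasl2 was at 6.08, 20.5 and 5.58 FPKM in BCP, against 6.05, 10.9 and 4.50 FPKM in sBCP, and here only BCP replicate 2 left the sBCP range. Oasl averaged 3.14 ± 1.92 FPKM in BCP and 1.77 ± 0.495 FPKM in sBCP (SD, n = 3 each). Oas2 reached 2.07 FPKM in BCP replicate 2 and at most 0.775 FPKM elsewhere, and Oas3 stayed at or below 0.342 FPKM in every library. Oas1a and other Oas1 copies of the rat genome are close paralogs, as are Mx1 and Mx2 and the Ifitm genes, so their values are uncertain wherever reads were shared.

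The GTPases that block virus entry and replication had only BCP replicate 2 above every sBCP library. Mx1 was at 3.99, 16.5 and 3.68 FPKM in BCP, against 3.76, 7.94 and 2.16 FPKM in sBCP. BCP replicate 2 was the highest library and sBCP replicate 3 came next, above BCP replicate 1. Its difference was 0.53 with all libraries and -0.084 without BCP replicate 2. Mx2 was more abundant, at 24.5, 50.2 and 16.7 FPKM in BCP, against 14.6, 25.3 and 14.5 FPKM in sBCP, with a difference of 0.62 and of 0.20 without BCP replicate 2. The guanylate-binding proteins, which attack vacuoles of microbes and answer interferon gamma as well, had small differences of 0.13 for Gbp2 and 0.12 for Gbp5. Gbp2 averaged 7.01 ± 4.47 FPKM in BCP and 5.93 ± 2.39 FPKM in sBCP, and Gbp5 3.91 ± 1.89 FPKM and 3.35 ± 0.696 FPKM (SD, n = 3 each).

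Membrane restriction factors were abundant and ranged from little difference to a clear peak in BCP replicate 2. Bst2 (tetherin), which holds budding virus at the cell surface, was at 22.8, 67.5 and 12.8 FPKM in BCP, against 19.7, 21.5 and 15.8 FPKM in sBCP. BCP replicate 2 was far above and BCP replicate 3 below the narrow sBCP range. Ifitm3, which blocks fusion of virus with endosomes, was at 52.1, 133 and 42.0 FPKM in BCP, against 58.1, 69.7 and 43.0 FPKM in sBCP. Its relatives on chromosome 1, Ifitm1 and Ifitm2, had lower ratios of BCP replicate 2 to the other libraries, 1.37 and 1.38 against 2.55 for Ifitm3. Ifitm1 was at 23.4, 33.9 and 23.6 FPKM in BCP and between 24.7 and 28.3 FPKM in sBCP. Ifitm2 averaged 47.9 ± 11.7 FPKM in BCP and 54.0 ± 10.4 FPKM in sBCP (SD, n = 3 each). Ifitm2 was highest in sBCP replicate 3 (11.8% of all tested features) and had the lowest difference of the tested genes, -0.18 (95% interval from -0.65 to 0.30). All 4 genes of this group were below 0 without BCP replicate 2.

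Parp9 and Dtx3l, which encode partners in a ubiquitin ligase complex and lie next to each other on chromosome 11, had the same highest and lowest libraries as Parp14. Parp9 was at 4.73, 9.80 and 4.90 FPKM in BCP, against 6.54, 6.53 and 3.66 FPKM in sBCP, and Dtx3l at 1.36, 3.48 and 1.89 FPKM in BCP, against 1.62, 2.39 and 1.17 FPKM in sBCP. Parp14, a mono-ADP-ribosyltransferase, averaged 4.13 ± 1.73 FPKM in BCP and 3.47 ± 0.881 FPKM in sBCP (SD, n = 3 each). In all 3 genes only BCP replicate 2 was above the sBCP range, sBCP replicate 4 was the lowest library, and the differences lay between 0.15 and 0.22.

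The remaining effectors ranged from strong single-library peaks to nearly flat levels. Rsad2 (viperin), an enzyme that makes a chain-terminating nucleotide, was at 4.18, 14.9 and 1.87 FPKM in BCP, against 1.86, 2.70 and 2.37 FPKM in sBCP. BCP replicates 1 and 2 stood above the sBCP libraries and BCP replicate 3 was close to the lowest of them (difference of 0.91, 95% interval from -0.41 to 2.24). Cmpk2, a nucleotide kinase whose gene lies 14085 bases from Rsad2 on chromosome 6, was at 7.58, 8.74 and 7.85 FPKM in BCP, against 5.65, 7.32 and 6.76 FPKM in sBCP. It was the only one of the 42 genes with every BCP library above every sBCP library, where 2.34% of all tested features did so, and none had the reverse order, where 3.06% did. Its difference was 0.26 (standard error 0.117, unadjusted p = 0.0591, adjusted p = 1.00 by limma). BCP replicate 2 was 6.32 times the median of the other libraries for Rsad2 and 1.19 times for Cmpk2.

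Ifi27, a mitochondrial and nuclear-envelope protein gene and by far the most abundant of the set, was at 465, 533 and 377 FPKM in BCP, against 333, 390 and 414 FPKM in sBCP. Lgals3bp, a secreted glycoprotein that binds galectins, was at 110, 166 and 66.1 FPKM in BCP, against 61.1, 74.0 and 78.6 FPKM in sBCP. Both had BCP replicates 1 and 2 above all sBCP libraries, with differences of 0.26 and 0.58. Ifi44 averaged 9.58 ± 4.74 FPKM in BCP and 6.13 ± 1.40 FPKM in sBCP (SD, n = 3 each), and its neighbour Ifi44l was at 1.16, 2.37 and 1.01 FPKM in BCP, against 0.536, 1.13 and 0.436 FPKM in sBCP. For Ifi44l, BCP replicates 1 and 2 were above the sBCP libraries and BCP replicate 3 was below the highest of them only (difference of 0.55, unadjusted p = 0.0673 by limma). The BCP libraries and sBCP replicate 3 reached the filter level of 1 FPKM, so the entry of Ifi44l into the test rested mostly on BCP. Rtp4, a chaperone of receptor proteins, was at 2.77, 10.4 and 2.52 FPKM in BCP, against 2.92, 4.83 and 1.96 FPKM in sBCP, and as for Mx1 sBCP replicate 3 came next to BCP replicate 2. Ifi35, Xaf1, Isg20, an exonuclease, and Helz2, a helicase, had differences of 0.27, 0.14, 0.12 and -0.00028 (0.0092 for Helz2 with median-ratio scaling). Isg20 was the only tested gene highest in BCP replicate 3 (14.7% of all tested features), at 2.95 FPKM, against 2.28 and 2.72 FPKM in BCP replicates 1 and 2 and 2.23 to 2.52 FPKM in sBCP.

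BCP replicate 2 was at least 2 times the median of the other 5 libraries in 23 of the 42 tested genes (54.8%), as it was in 2.22% of all tested features. The median of this ratio was 2.23 over the 42 genes and 1.00 over all tested features, for which the 5th and 95th percentiles were 0.677 and 1.50. Ifit1 led at 9.09, followed by Isg15 at 7.34, Oas1a at 7.33, Irf7 at 6.80 and Rsad2 at 6.32. The lowest ratios belonged to Isg20 at 1.16, Adar at 1.18 and Cmpk2 at 1.19. By role, with 3 to 11 tested genes in each, the medians were 4.84 for IFIT, 4.13 for the ISG15 system, 3.38 for OAS, 2.72 for GTPase and 2.00 for Parp9, Dtx3l and Parp14 genes. They were 1.97 for membrane factors, 1.92 for sensors, 1.84 for other effectors and 1.71 for transcription factors.

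**Figure D4:**
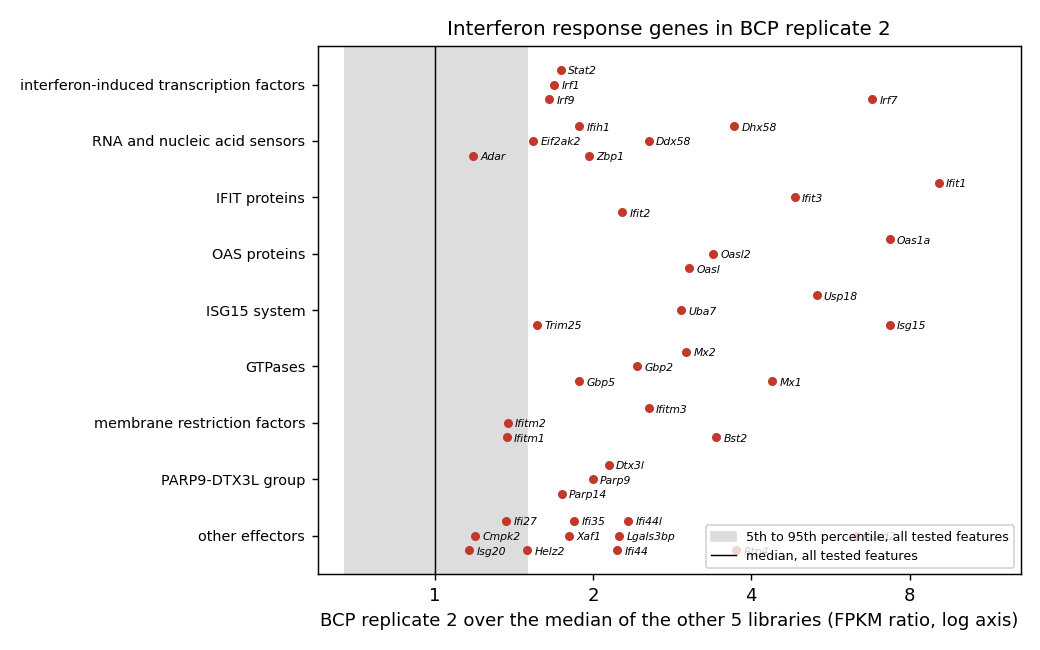
Points are the tested genes by role, placed at the FPKM ratio of BCP replicate 2 to the median of the other 5 libraries on a log axis. The grey band is the 5th to 95th percentile over all tested features (0.677 to 1.50), and most points lie to its right, up to 9.09 for Ifit1.

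BCP replicate 1 divided the set. It lay above all sBCP libraries in 15 of the 42 tested genes (35.7%) and below all of them in 3, Ifih1, Adar and Ifitm1, where 15.1% and 29.5% of all tested features did so. The 15 were Irf1, Irf7, Stat2, Ifit1, Oas1a, Oasl, Isg15, Usp18, Bst2, Rsad2, Cmpk2, Ifi27, Ifi35, Ifi44l and Lgals3bp. Relative to the sBCP mean, BCP replicate 1 was at 3.76 for Ifit1, 2.80 for Isg15, 2.18 for Oas1a, 1.87 for Usp18 and 1.81 for Rsad2, but at 0.863 for Mx1, 0.850 for Oasl2 and 0.854 for Rtp4. BCP replicate 3 lay above all sBCP libraries only for Isg20 and Cmpk2 (19.7% of all tested features) and below all of them for 12 of the 42 (28.6%, where 19.5% of all tested features did so), among them Irf7, Bst2, Dhx58 and the 3 Ifitm genes. Within the sham group the genes also varied together. Replicate 3 was the highest of the sBCP libraries in 35 of the 42 genes (25.7% of all tested features) and replicate 4 the lowest in 30 (48.7%). On the centred scale (each gene's log2(FPKM + 1) minus its mean) the median over the 42 genes was -0.071, 0.73 and -0.28 in BCP and -0.17, 0.10 and -0.42 in sBCP.

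Of 11 interferon genes listed, 5 had a row in the table and none of these reached 1 FPKM, and the other 6 are not analysed here. Ifnb1, Ifna4 and Ifnk were each listed above 0 in a single library, at 0.0231 and 0.0642 FPKM in BCP replicate 1 and 0.0725 FPKM in sBCP replicate 1, Ifne stayed at or below 0.127 FPKM, and Ifng was listed at 0 in all 6 libraries. The receptor genes were expressed at even levels. Ifnar1 was at 25.4, 25.2 and 28.2 FPKM in BCP, against 27.1, 25.1 and 24.6 FPKM in sBCP, and Ifnar2 at 6.46, 7.97 and 8.07 FPKM in BCP, against 8.01, 7.93 and 6.14 FPKM in sBCP. Of 12 tested genes for receptors, kinases and regulators, limma called 0 higher and 0 lower. Among them 10 were above 0 (45.5% of all tested features) and 2 below, with a median difference of 0.040. Ifngr2, a subunit of the interferon gamma receptor, was at 12.3, 16.2 and 13.4 FPKM in BCP and between 11.4 and 13.3 FPKM in sBCP. The feedback inhibitor Socs3 was less even, at 8.01 FPKM in BCP replicate 2, against 2.56 and 2.93 FPKM in the other BCP libraries and 2.13 to 3.73 FPKM in sBCP. Of 10 tested genes for sensing upstream of interferon, 7 were above 0 and 3 below, and none was called. Trex1, an exonuclease that removes cytosolic DNA, was at 12.2, 14.5 and 11.4 FPKM in BCP, against 11.6, 9.72 and 11.9 FPKM in sBCP. The adaptor Myd88 was at 5.49, 6.84 and 4.53 FPKM in BCP, against 4.65, 4.50 and 4.86 FPKM in sBCP, and the endosomal receptors Tlr3, Tlr7, Tlr8 and Tlr9 were below the filter.

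Interferon-induced chemokines and genes shared with interferon gamma followed the same library. BCP replicate 2 was the highest in 17 of the 18 with a row, as it was in 21% of all tested features. Of 13 tested, 12 were above 0 and 1 below (45.5% of all tested features above 0), and none was called by limma. The median difference of 0.25 was -0.062 without BCP replicate 2. In that fit 4 of the 13 were above 0, as were 43.6% of all tested features. Cxcl9, a T-cell attracting chemokine, was at 1.01, 5.03 and 1.75 FPKM in BCP, against 1.37, 1.67 and 0.758 FPKM in sBCP. Tap1, which carries peptides to MHC class I, was at 4.25, 7.66 and 3.08 FPKM in BCP, against 3.00, 4.35 and 2.77 FPKM in sBCP. The proteasome subunit Psmb10 and the checkpoint ligand Cd274 had differences of 0.20 and 0.18.

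BCP replicate 2 was the highest library for 14 of 15 macrophage genes and 10 of 10 axon injury genes as well (21% of all tested features). The summed level of 15 macrophage genes was 167, 563 and 84.6 FPKM in BCP and 165, 234 and 118 FPKM in sBCP, and Cd68, a lysosomal macrophage marker, ran from 2.10 to 20.6 FPKM in BCP and from 5.12 to 8.15 FPKM in sBCP. All 15 were above 0 FPKM in every library, and the exception, Cd163, was at 1.24, 1.28 and 0.915 FPKM in BCP, against 1.46, 0.875 and 1.48 FPKM in sBCP. The sum of 10 axon injury genes was 289.5, 802 and 270.1 FPKM in BCP and 279, 288 and 306 FPKM in sBCP, with the injury factor Atf3 at 40.8 FPKM and the neuropeptide Npy at 224 FPKM in BCP replicate 2. In BCP replicate 1 both sums lay within the sBCP range. There 2 of the 15 macrophage genes, Cd68 at 8.53 FPKM and Fcgr3a, and 3 of the 10 injury genes exceeded every sBCP library. So did 15.1% of all tested features. With the macrophage level as a covariate, an alternative chosen after seeing the data, 37 of the 42 genes were above 0 and limma called none. Their median difference was 0.16, against -0.013 over all tested features. In that fit 14 had an unadjusted p under 0.05, 13 of them higher, where 2.5% of all tested features passed that level, 0.832% as higher. Limma called 0.16% of all tested features there, and Ifit1 had a difference of 1.24 and the smallest adjusted p, 0.186. Markers of plasmacytoid dendritic cells summed to 28.3, 75.2 and 16.9 FPKM in BCP and 26.3, 27.7 and 19.6 FPKM in sBCP. Most of this sum was Bst2, at 22.8, 67.5 and 12.8 FPKM in BCP and 19.7, 21.5 and 15.8 FPKM in sBCP. Bst2 is 1 of the 42 genes, so the sum does not stand apart from them. Epithelial and mammary tumour markers summed to 77.6 to 86.1 FPKM in BCP and 77.4 to 84.6 FPKM in sBCP. Lymphocyte genes summed to 11.2, 29.6 and 6.61 FPKM in BCP and 10.1, 16.5 and 9.12 FPKM in sBCP. BCP replicate 2 exceeded every sBCP library for 7 of the 10 with a row, where 25.5% of all tested features did so. Only 1 of the 10 met the filter, and Cd3e, a marker of T cells, was at most 0.501 FPKM. The macrophage sum was by far the highest in BCP replicate 2, so the fit with that covariate cannot tell macrophage level apart from other traits of this library. The part of macrophages and of injury in the differences was not tested.

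**Figure D5:**
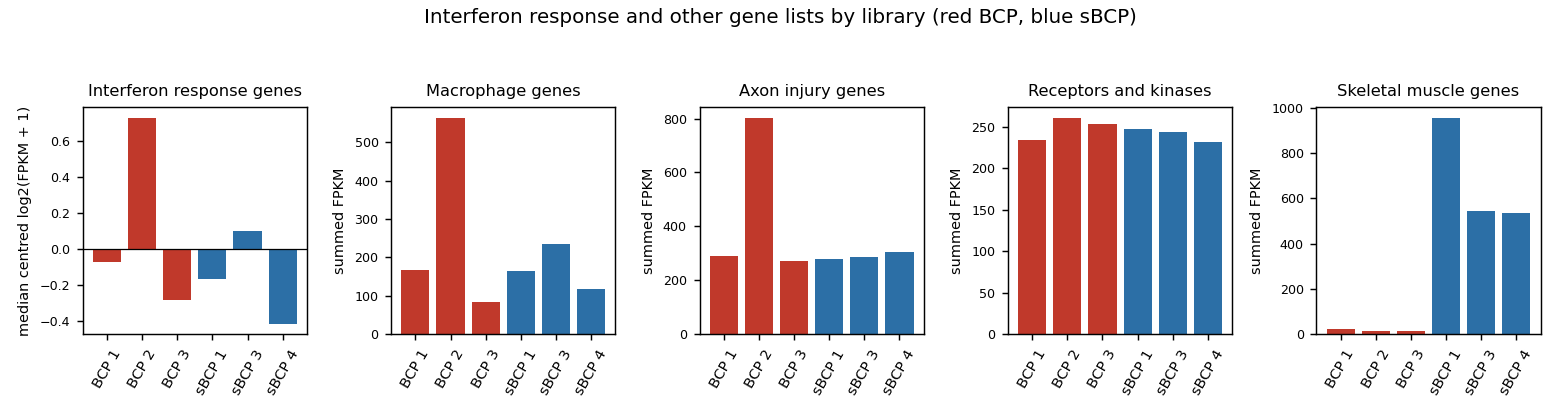
The left panel gives the median over the 42 tested genes of log2(FPKM + 1) minus each gene's mean, by library, and the other panels the summed FPKM of 4 gene lists. BCP replicate 2 is highest for interferon response, macrophage and axon injury genes, the receptor and kinase sums stay between 232 and 260 FPKM, and muscle genes are high in the sBCP libraries only.

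Defining markers of the ganglion were present in every library. Prph, an intermediate filament gene of small neurons, was at 1208 to 1347 FPKM in BCP and 1086 to 1323 FPKM in sBCP. Skeletal muscle genes were far lower in BCP, with sums of 13.6 to 22.4 FPKM in BCP and 537 to 954 FPKM in sBCP, and 8 of 8 were called lower by limma. Muscle level and group cannot be told apart here, and the part of muscle tissue in the interferon differences was not tested. The sum of neutrophil genes was 30.3, 12.5 and 5.97 FPKM in BCP and 38.8, 15.7 and 29.3 FPKM in sBCP, so BCP replicate 2 was not high for these. FPKM summed to 479167 to 495494 in a library, and the absolute depth is unknown.

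The authors' deposited table marks 7 of the 45 genes as significant and higher in BCP, where it marks 0.206% of all features so. These were Ifit1, Isg15, Rsad2, Irf7, Oas1a, Usp18 and Ifi44l, with log2 fold changes in the authors' deposited table from 1.11 for Ifi44l to 2.22 for Ifit1. In the authors' deposited table the p-value of Ifit1 was 0.000234 with a q-value of 0.0472. Those of Isg15 and Rsad2 were 0.164 and 0.441, and the other marked genes had higher q-values. The mark is therefore not a call at an adjusted level of 0.05. In the authors' deposited table Ifi44l was marked with a p-value of 0.0431. Lgals3bp was not, with a p-value of 0.00771 and a log2 fold change of 0.679 there. The test behind these values is not given in the sources used here.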

How the data were processed

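Poly(A) RNA of 3 BCP and 3 sBCP ganglion samples was sequenced in pairs, per the labels' protocols. The deposited table holds the authors' FPKM for each gene in each library, per the file headers, and no source used here gives the aligner, counting tool, strand setting, annotation or build. The authors also deposited a fold change with its log2, and p-values and q-values of a test not named there, per the file headers. Depth is unknown, so no interval from counts was made.

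The 13710 of 23800 features with 1 FPKM or more in 3 or more of 6 libraries entered a limma fit (version 3.58.1, R 4.3.3) of log2(FPKM + 1), with a variance trend, no covariate and Benjamini-Hochberg adjustment over all of them at 0.05. This scale understates differences of low genes. The fit was tested on simulated data with independent noise in each gene and library. These data do not cover a library that is high in many genes at once, as BCP replicate 2 was. The interferon genes, the other lists and the tests were chosen with earlier results of these data known. Named are all tested interferon genes and, of each other list, up to 4 genes with the smallest unadjusted p, with Ifnar1, Ifnar2, Cd68, Atf3 and Npy. The interferons, Tlr genes, Cd3e, Cd163, Fcgr3a and Prph were added after their values were seen. Some items are not reported here. Alternatives were pseudocounts, filters, scalings, variance models, the replicate block, a macrophage covariate and leaving out each library. Promoters came from RefSeq (GRCr8), matched by symbol. Figures used matplotlib 3.10.9.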

Additional observations from a re-analysis of the deposited data

How the results depend on the processing

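None of the 42 interferon genes was called under any alternative run (0 in each), the smallest adjusted p being 0.186 with the macrophage covariate (limma). Pseudocounts of 0.1 and 0.5, both other filters (no filter and a mean of at least 1 FPKM) and dropping the variance trend kept the direction of all 42, while other settings turned some. Leaving out 1 library at a time gave 0 to 7 features called higher, 13 to 24 called lower, 20 to 41 interferon genes above 0, 1 to 22 below 0 and a median difference from -0.039 to 0.46. Over these fits 21 genes changed sign. Their differences ranged from -0.10 to 0.044 for Adar, -0.13 to 1.02 for Bst2, -0.13 to 0.48 for Ddx58, -0.22 to 0.66 for Dhx58, -0.038 to 0.42 for Dtx3l, -0.071 to 0.33 for Eif2ak2, -0.29 to 0.42 for Gbp2, -0.18 to 0.34 for Gbp5, -0.13 to 0.091 for Helz2, -0.11 to 0.24 for Ifih1 and -0.098 to 0.42 for Ifit2. The others were -0.30 to 0.61 for Ifit3, -0.15 to 0.10 for Ifitm1, -0.25 to 0.57 for Ifitm3, -0.084 to 0.94 for Mx1, -0.18 to 0.68 for Oasl2, -0.093 to 0.36 for Parp14, -0.14 to 0.31 for Parp9, -0.16 to 0.68 for Rtp4, -0.10 to 0.26 for Trim25 and -0.13 to 0.34 for Xaf1. With no filter 1 feature was called higher. With median-ratio rescaling and with quantile normalization 1 interferon gene was below 0 (Ifitm2), Adar being at 0.0080 and 0.00064 and Helz2 at 0.0092 and 0.034. With the macrophage covariate 5 were below 0, and Gbp2 was at -0.030 and Ifitm1 at -0.026. Array weights per library gave sBCP replicate 3 a weight of 6.98 and the others at most 1.03, and called 4 features higher and 35 lower, with 22 interferon genes above 0 and 20 below. The differences that turned were then -0.25 for Ddx58, -0.17 for Dhx58, -0.12 for Dtx3l, -0.11 for Eif2ak2, -0.34 for Gbp2, -0.12 for Gbp5, -0.0040 for Ifih1, -0.037 for Ifit2, -0.096 for Ifit3, -0.085 for Ifitm3, -0.23 for Mx1, -0.23 for Oasl2, -0.11 for Parp14, -0.091 for Parp9, -0.13 for Rtp4, -0.029 for Xaf1 and -0.073 for Zbp1.

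The replicate number as a block pairs replicates 1 and 3. It gives no weight to BCP replicate 2 or sBCP replicate 4 in the difference. With this block 10 features were called higher and 28 lower, and 15 interferon genes were above 0 and 27 below. The median difference of the interferon genes was -0.12, against -0.042 over all tested features. The deviations from the group means correlated at 0.064 over features for the libraries numbered 1 and at -0.10 for those numbered 3, so the numbers are not shown to pair the samples. The differences that turned under the block were -0.25 for Bst2, -0.22 for Ddx58, -0.42 for Dhx58, -0.19 for Dtx3l, -0.29 for Eif2ak2, -0.56 for Gbp2, -0.28 for Gbp5, -0.054 for Ifi35, -0.016 for Ifi44, -0.17 for Ifih1, -0.25 for Ifit2, -0.56 for Ifit3, -0.10 for Ifitm1, -0.43 for Ifitm3, -0.43 for Mx1, -0.43 for Oasl2, -0.25 for Parp14, -0.37 for Parp9, -0.39 for Rtp4, -0.17 for Trim25, -0.082 for Uba7, -0.022 for Usp18, -0.19 for Xaf1 and -0.13 for Zbp1. Causes of these shifts were not tested. With 3 libraries a group and unknown depth, genes near 1 FPKM are the least certain.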
